A study of Mus musculus with 5 samples.

Results

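Sfpq, Nono, Khsrp, Matr3 and Ewsr1 encode nuclear RNA-binding proteins, and their mRNAs were followed here as targets of N6-methyladenosine (m6A). Sfpq and Khsrp were chosen by the methylation levels of their sites in the Mettl5-KO clones against WT and the other 3 genes for their related roles, and the members were all positions of the deposited tables on their GENCODE M21 exons (mm10, strand of the call). In the METTL3 inhibition dataset 846 of 471848 covered positions lay on these genes, 761 on Sfpq and 85 on Nono. In the Mettl5 dataset 1092 of 195787 did, 735 on Sfpq, 102 on Khsrp and 255 on Matr3. No position of Ewsr1 was covered in either dataset, so 4 of the 5 genes could be described. An m6A site was a position with more than 25 valid calls in each library of its dataset and a methylation level (m6A calls over valid calls) of 25% or more in at least 1 library, so that sites were selected on the level itself. By this rule 3 of 6201 sites in the METTL3 inhibition dataset were in the 5 genes, all in Sfpq, and 10 of 1886 in the Mettl5 dataset, 6 in Sfpq, 1 in Khsrp and 3 in Matr3.

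The libraries were nanopore direct RNA sequencing of mouse embryonic stem cells (mESCs), in which each RNA strand is read itself and m6A is called from the current signal. The METTL3 inhibition dataset held 1 library of mESCs given the METTL3 inhibitor STM2457 (30 μM, 48 h) and 1 of mESCs given the solvent DMSO (0.025%). Both came from E14 mESCs that carry Dox::APOBEC1-YTH-HA-IRES-tdiRFP as a transgene that was not induced, the reporters Zscan4::mCherry-PEST and 2C::3xtbGFP-PEST, and a homozygous FKBP12 F36V knock-in at the Mettl3 C-terminus (non-induced). The Mettl5 dataset held 1 library each of WT mESCs and of 2 Mettl5 knockout clones (Mettl5-KO clone 1 and clone 2). Cells were grown in serum with LIF, with 2i added for maintenance. Replicates existed only as these 2 clones, which share the WT library as their control. With 1 library per condition, a test on reads compares libraries and not conditions, and its intervals cover counting error only. The datasets differed in cell line and run, so levels of both are given side by side with no test between them.

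The depth was 71574467 valid calls in DMSO and 54051900 in STM2457, and 17897440 to 22025887 in the libraries of the Mettl5 dataset. Of the stem cell markers 9 of 9 were covered in the METTL3 inhibition dataset and 7 of 9 in the Mettl5 dataset, while 0 of 6 differentiation markers and 0 of 3 fibroblast markers were. No exonic position of Mettl5 was covered, so the knockout was not checked here.

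SFPQ and NONO belong to the DBHS family, proteins that pair with each other, bind nascent RNA and help to build paraspeckles, nuclear bodies formed on the long non-coding RNA Neat1. KHSRP binds AU-rich elements through its KH domains and promotes decay of the mRNAs that hold them, MATR3 is an RNA-binding protein of the nuclear matrix, and EWSR1 is a member of the FET family of RNA-binding proteins. m6A of mRNA is written by METTL3 with METTL14, mostly in DRACH motifs (D is A, G or U, R is A or G, H is A, C or U), whereas METTL5 is known as the m6A methyltransferase of 18S rRNA.

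The windows around the Sfpq sites, shown with that of Khsrp, showed 2 kinds of site. The sequences are printed 5′ to 3′ with 10 bases on each side of the adenosine, from GENCODE M21 transcripts on mm10, and the capitals mark the adenosine with the 2 bases before and after it. The first 2 hold a DRACH motif and lie in coding exons 2 and 3. The other 4, and the Khsrp site, do not.
Sfpq site 1, chr4:127022922-127022942 (+): aattcaaaAGACTgtttgcta
Sfpq site 2, chr4:127023394-127023414 (+): tttccaacGAACTtttggaag
Sfpq site 3, chr4:127027491-127027511 (+): gagtggttCCATGatgggaag
Sfpq site 4, chr4:127029923-127029943 (+): agagaagaGTATGaagggcca
Sfpq site 5, chr4:127030082-127030102 (+): atatttgtAAATGgcctgttt
Sfpq site 6, chr4:127030137-127030157 (+): caggagaaAAAATtttttcat
Khsrp site, chr17:57021524-57021544 (-): caaaacctATAAAatgatata

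Sfpq (ENSMUSG00000028820.13, chr4:127021324-127037013, plus strand) has 1 coding transcript, Sfpq-201, of 10 exons and 3465 bases. Sites 1 to 4 lie in the coding sequence, in exons 2, 3, 9 and 10. Sites 5 and 6 lie in the 3′ UTR part of exon 10. Sites 3, 5 and 6 were sites in the Mettl5 dataset only, since no METTL3 inhibition library reached 25% there.

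Both DRACH sites of Sfpq lost most of their m6A after STM2457. At site 1 (chr4:127022932, exon 2, 72 bases from the nearest junction) the methylation level was 39.4% in DMSO (26 of 66 calls, exact binomial 95% interval 27.6 to 52.2%) and 8.62% in STM2457 (5 of 58 calls, 2.86 to 19.0%). At site 2 (chr4:127023404, exon 3, 137 bases from the nearest junction) the level was 50.8% in DMSO (32 of 63 calls, 37.9 to 63.6%) and 7.27% in STM2457 (4 of 55 calls, 2.02 to 17.6%). The intervals did not overlap at either site. The level fell by 30.8 percentage points at site 1 and fell by 43.5 percentage points at site 2, relative decreases of 78.1% and 85.7%. Both passed a two-sided Fisher's exact test, adjusted by Benjamini-Hochberg over the 6201 sites (adjusted p = 0.000101 and adjusted p = 4.89e-07). Thus 2 of the 3 Sfpq sites were lower after STM2457, where 91.5% of all sites were called lower. The median relative decrease was 81.9% over the 2 DRACH sites and 80.2% over the 6096 sites of all genes with 25% or more in DMSO. Before treatment the DRACH sites of Sfpq were of modest level: site 1 stood at percentile 32.9 and site 2 at percentile 48.5 of the DMSO levels of all sites.

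**Figure D1:**
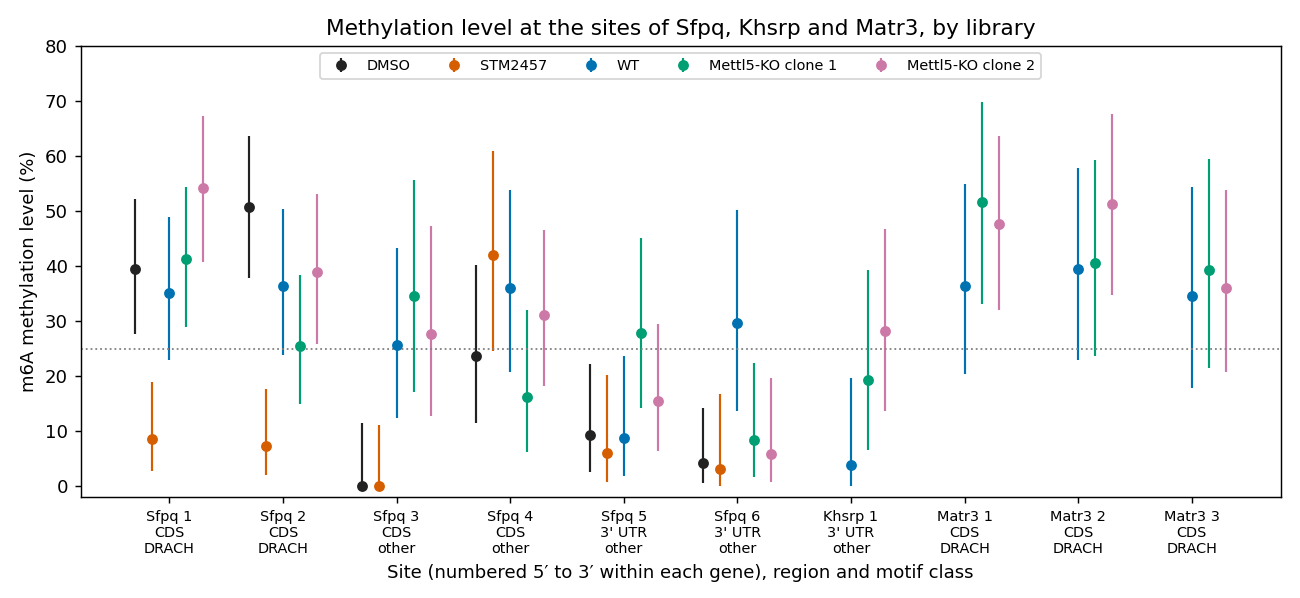
Methylation level in percent (y axis) at the 10 sites of Sfpq, Khsrp and Matr3 (x axis, numbered 5′ to 3′ within each gene, with region and motif class), with 1 point per library and exact binomial 95% intervals as bars. The dotted line is the 25% level of the site rule. The STM2457 points of Sfpq sites 1 and 2, at 8.62% and 7.27%, lie below all other points of those sites, and at Sfpq site 4 the STM2457 point, at 41.9%, lies above the DMSO point.

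Sfpq site 4 did not follow the DRACH sites. At chr4:127029933 (exon 10, coding sequence) the level was 23.7% in DMSO (9 of 38 calls, 11.4 to 40.2%) and 41.9% in STM2457 (13 of 31 calls, 24.5 to 60.9%). The difference of 18.3 percentage points did not pass the test (Fisher's exact test, adjusted p = 0.133), and the intervals overlapped. It stood at percentile 99.7 of the differences of all sites, 0.323% of which were called higher. The site rule favoured this rank. Site 4 reached 25% in STM2457 only, while 6096 of the 6201 sites reached it in DMSO. Failed calls, those under the confidence filter when calls were counted, were 32.1% of the calls at this position in DMSO and 26.2% in STM2457. Over the whole libraries they were 8.87% and 8.85%. With failed calls in the denominator the m6A calls were 9 of 56 in DMSO and 13 of 42 in STM2457. Why these calls failed was not tested. Over all genes, 25.8% of the 708 sites without a DRACH motif and 0.0728% of the 5493 with one were higher after STM2457 than in DMSO.

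The remaining Sfpq sites were low in this dataset. Site 3 (chr4:127027501) had no m6A call among 30 in DMSO and 31 in STM2457, which by the exact binomial interval allows levels of up to 11.6% and 11.2%. Site 5 (chr4:127030092) read 9.30% and 6.06%, and site 6 (chr4:127030147) 4.17% and 3.23%, in DMSO and STM2457. The mean level over the 3 sites that met the rule, the m6A load of Sfpq, was 38.0% in DMSO and 19.3% in STM2457, a relative decrease of 49.2%. The same mean over the 2 DRACH sites went from 45.1% to 7.95%. Site 4, the only one to read higher, separates these values.

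**Figure D2:**
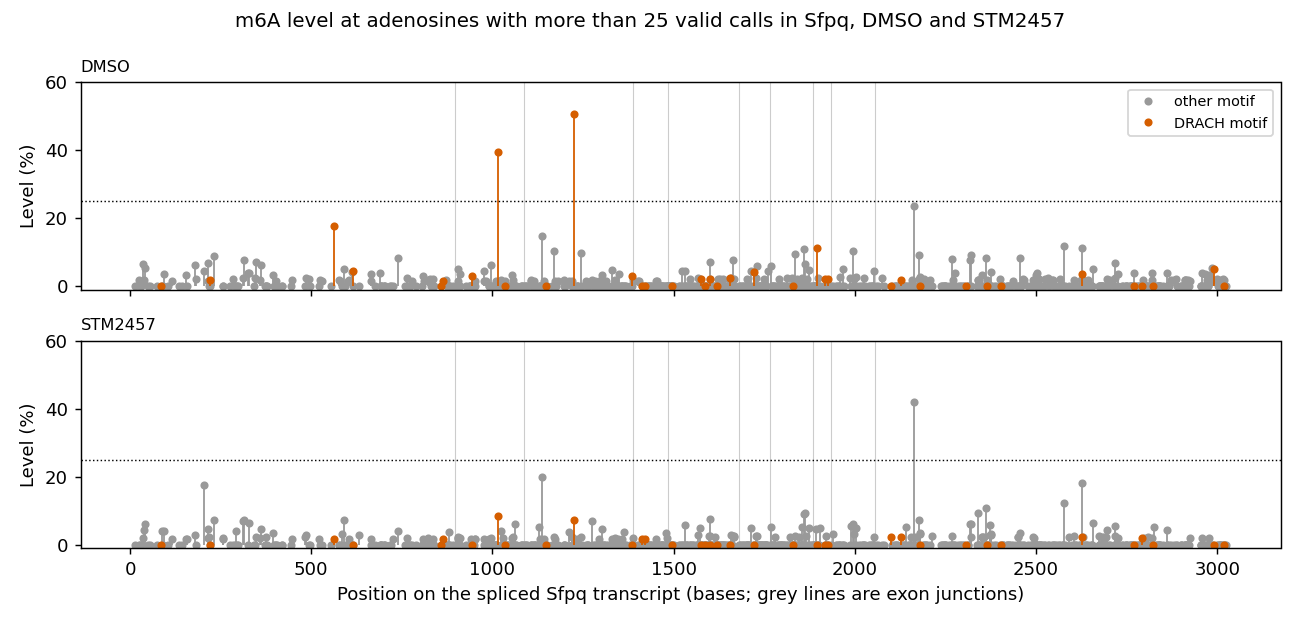
Methylation level in percent (y axis) at each adenosine of Sfpq with more than 25 valid calls in both libraries, along the spliced transcript in bases (x axis), in DMSO and STM2457. DRACH positions are orange, others are grey, grey vertical lines are exon junctions and the dotted line is 25%. In DMSO 2 DRACH positions pass 25%, and in STM2457 the highest DRACH position is at 8.62%.

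Most DRACH motifs of Sfpq carried little m6A. Of the 37 DRACH positions with more than 25 calls, 19 were at 0 in DMSO and 27 in STM2457, and 4 were at 10% or more in DMSO against none in STM2457. Of the 38762 such positions of all genes, 15409 were at 0 in DMSO and 24716 in STM2457. At 10% or more were 9002 in DMSO and 2816 in STM2457. The mean over the 37 was 4.32% in DMSO and 0.864% in STM2457, beside 10.9% and 2.71% over the DRACH positions of all genes. The level also went with the last base of the motif: of the 10 DRACH positions that end in U (T in the sequences), 2 were at 25% or more in DMSO, and of the 18 ending in A and 9 ending in C none was. Over all genes 27.8%, 9.87% and 5.20% of the positions ending in T, A and C were at 25% or more in DMSO.

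Copies of 1 motif differed in level within Sfpq. The windows of 4 further GAACT copies and of the highest DRACH position under the threshold, a GGACC in exon 1, are shown for comparison with site 2.
Exon 1, chr4:127021877-127021897 (+): ccgcccccGGACCgcctcccc
Exon 6, chr4:127026173-127026193 (+): gcatggagGAACTtcacagtc
Exon 10, coding, chr4:127029889-127029909 (+): ggggcctgGAACTccagcagg
Exon 10, 3′ UTR, chr4:127030532-127030552 (+): gaaaagttGAACTtgcaagtc
Exon 10, 3′ UTR, chr4:127030751-127030771 (+): cttgtactGAACTtttgcatt

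In DMSO the GAACT of site 2 was at 50.8%. The copy in exon 6 was at 4.35% of 46 calls, 40 bases from a junction. The copy in the coding part of exon 10 was at 1.82% of 55 calls, 72 bases from the nearest junction. Whether the distance to a junction bears on these levels was not tested. The 3′ UTR copies were at 0% of 53 calls and 5.26% of 57 calls. The GGACC of exon 1 (chr4:127021887) read 17.9% in DMSO and 1.79% in STM2457, 56 calls in each, and 10%, 17.5% and 7.81% in WT, clone 1 and clone 2. An AGACA of exon 8 (chr4:127027278) read 11.4% of 44 calls in DMSO and no m6A among 41 calls in STM2457.

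The DRACH m6A of Sfpq lay in the coding sequence. In DMSO the 27 coding DRACH positions had a mean of 5.59%, which was 1.02% in STM2457. The 9 of the 3′ UTR had a mean of 1.0% and 0.487%, the highest being 5.26%. The single covered DRACH position of the 5′ UTR had no m6A call in either library. In the Mettl5 dataset the 7 DRACH positions of the 3′ UTR were at most 2.33% for WT, 4.76% for clone 1 and 4.35% for clone 2.

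The covered 3′ UTR ended before the annotated one. The last covered position was chr4:127030795 in the METTL3 inhibition dataset and chr4:127030731 in the Mettl5 dataset, while Sfpq-201 ends at 127031236. A further transcript, Sfpq-206, reaches 127037013 through exons beyond that end, and no position there was covered in either dataset. All Sfpq 3′ UTR values therefore belong to the proximal part of the UTR of Sfpq-201, and no isoform regions of the UTR could be compared.

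The depth along Sfpq changed in steps at its longest introns. The median depth over positions of exons 1 to 4 was 61 valid calls in DMSO, 55 in STM2457, 56 in WT, 60 in clone 1 and 57 in clone 2. Over exons 5 to 9 it was 44, 41.5, 38, 42 and 39 in the same order. The median in exon 10 was 53, 43, 40, 42 and 46. The steps fell at the introns of 2085 bases after exon 4 and 2308 bases after exon 9. The depth of exons 1 to 4 was above that of exons 5 to 9 in all 5 libraries. How the aligner treated long introns is not given in the sources used here. Sites 1 and 2 had more valid calls behind them than sites 3 to 6. Failed calls also differed, at 0 to 10% of the calls at sites 1 and 2 and 14.6% to 40.9% at sites 3 to 6.

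**Figure D3:**
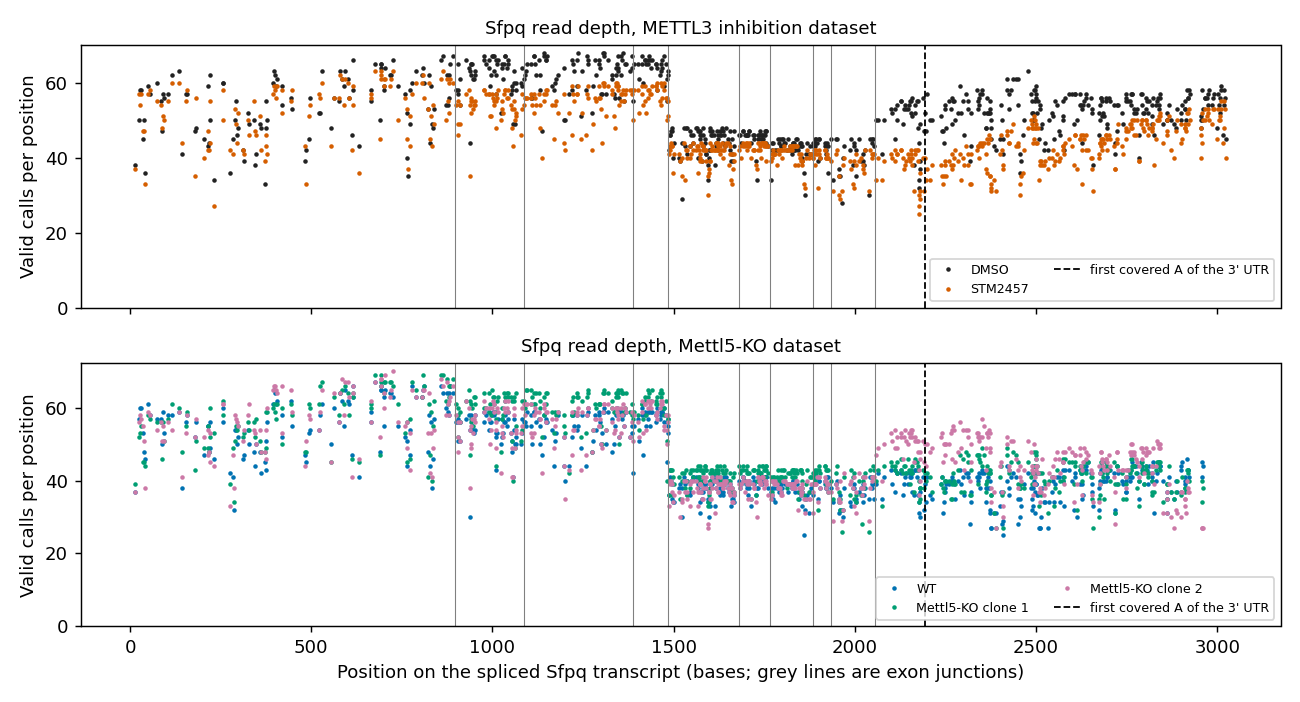
Valid calls per position (y axis) along the spliced Sfpq transcript in bases (x axis), 1 colour per library, METTL3 inhibition dataset above and Mettl5 dataset below. Grey lines are exon junctions and the dashed line is the first covered adenosine of the 3′ UTR. In DMSO the median is 61 calls in exons 1 to 4, 44 in exons 5 to 9 and 53 in exon 10.

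In the Mettl5-KO clones the DRACH sites of Sfpq were ordered differently from each other. Sfpq and Khsrp were chosen by their clone values, so their levels against WT are a description with no test. At site 1 the level was 35.1% in WT (57 calls), 41.3% in clone 1 (63 calls) and 54.2% in clone 2 (59 calls). At site 2 it was 36.4% in WT (55 calls), 25.4% in clone 1 (59 calls) and 38.9% in clone 2 (54 calls). Both clones were above WT at site 1, while at site 2 clone 1 was below and clone 2 above.

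The 4 sites without a DRACH motif read above or below WT depending on the site. Site 3 (CCATG) was at 25.7% in WT, 34.6% in clone 1 and 27.6% in clone 2, where both METTL3 inhibition libraries were at 0. Failed calls at site 3 were 14.6% in WT, 40.9% in clone 1 and 31.0% in clone 2. Its m6A calls were 9 of 35, 9 of 26 and 8 of 29 valid calls. With failed calls in the denominator they were 9 of 41, 9 of 44 and 8 of 42. Site 4 (GTATG) was at 36.1%, 16.2% and 31.1%, below WT in both clones. In the 3′ UTR, site 5 (AAATG) was at 8.82%, 27.8% and 15.6%. Site 6 was the only Sfpq site lower in both clones by the log2 fold change threshold of the study, 1.5. It had 8 m6A calls of 27 in WT (29.6%), 3 of 36 in clone 1 (8.33%) and 2 of 34 in clone 2 (5.88%). As log2 fold change this was -1.83 in clone 1 and -2.33 in clone 2.

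Site 6 lies in a run of adenosines, 1 base before its last, and a run of uridines follows. The exact binomial intervals at this site were 13.8 to 50.2% in WT, 1.75 to 22.5% in clone 1 and 0.720 to 19.7% in clone 2. They overlapped, which is no test of a difference. Failed calls were 32.5% of the calls there in WT, 28.0% in clone 1 and 38.2% in clone 2, against 8.31% to 9.15% over the whole libraries, and their part in the result was not tested. The adenosine just before it read 7.41% for WT, 0% for clone 1 and 2.63% for clone 2. In DMSO, the control library of the other dataset, site 6 read 4.17% of 48 calls, beside the 29.6% of WT.

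**Figure D4:**
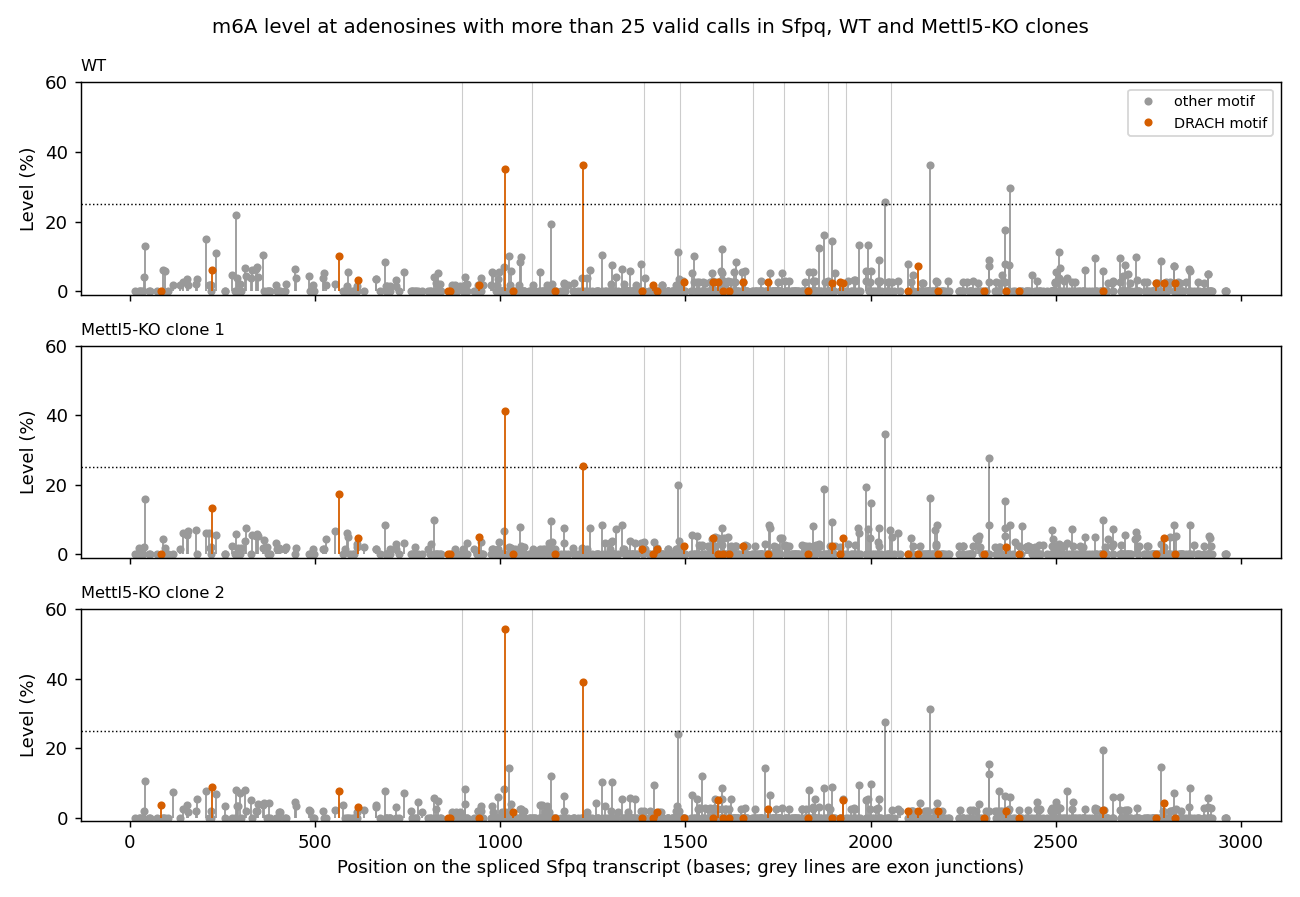
Methylation level in percent (y axis) at each adenosine of Sfpq with more than 25 valid calls in the 3 libraries of the Mettl5 dataset, along the spliced transcript in bases (x axis), drawn as in the plot for STM2457. The DRACH sites in exons 2 and 3 pass 25% in all 3 libraries, from 25.4% to 54.2%, and most of the other positions that pass it do so in some libraries only.

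WT had a mean level of 28.6% over the 6 Sfpq sites, beside 25.6% for clone 1 and 28.9% for clone 2, with a clone mean of 27.2% ± 2.31 (SD, n = 2 clones). Over the 4 coding sites it was 33.3%, 29.4% and 38.0%, and over the 2 sites of the 3′ UTR 19.2%, 18.1% and 10.7%. The clones were further from each other at the coding sites than their mean was from WT. Over all genes the mean was 44.0%, 46.4% and 46.4%. Between the clones 0 of the 10 sites of Sfpq, Khsrp and Matr3 differed in Fisher's exact test with Benjamini-Hochberg adjustment, and 0 of 10 had an unadjusted p below 0.05, where 0.053% and 4.51% of all sites did. The 7 sites of Sfpq and Khsrp belong to genes chosen by their clone levels, a choice that favours clones that read alike, so only the 3 of Matr3, none of which was called, are free of it. The median distance between the clones was 9.78 percentage points over these 10 sites and 6.20 over all 1886.

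Matr3 (ENSMUSG00000037236.16, chr18:35562138-35593835, plus strand) was covered only in exon 2 and only in the Mettl5 dataset. The covered positions ran from 35571843 to 35572934, almost the whole of this exon of 1093 bases, and the intron after it has 4622 bases. At the first site (chr18:35572385) the level was 36.4% in WT (12 of 33 calls), 51.6% in clone 1 (16 of 31) and 47.6% in clone 2 (20 of 42). At the second (chr18:35572395) it was 39.4% in WT (13 of 33), 40.6% in clone 1 (13 of 32) and 51.3% in clone 2 (20 of 39). At the third (chr18:35572872) it was 34.5% in WT (10 of 29), 39.3% in clone 1 (11 of 28) and 36.1% in clone 2 (13 of 36).

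Over all 1886 sites the mean level was higher in the clones, at 46.4% in each against 44.0% in WT. All 3 Matr3 sites were coding DRACH positions and also read higher in both clones than in WT, by 1.23 to 15.2 percentage points. None passed the test: 0 of 3 differed from WT in both clones in Fisher's exact test with Benjamini-Hochberg adjustment, where 0.265% of all sites did, and 0 of 3 had an unadjusted p below 0.05 in both, where 2.44% did. The lowest adjusted p was 0.900 (Fisher's exact test, clone 2, second site). At this depth the exact binomial intervals were wide, 20.4 to 54.9% in WT against 33.1 to 69.8% in clone 1 at the first site, so differences of the size seen were not detectable. The first 2 sites are 10 bases apart and share reads.

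**Figure D5:**
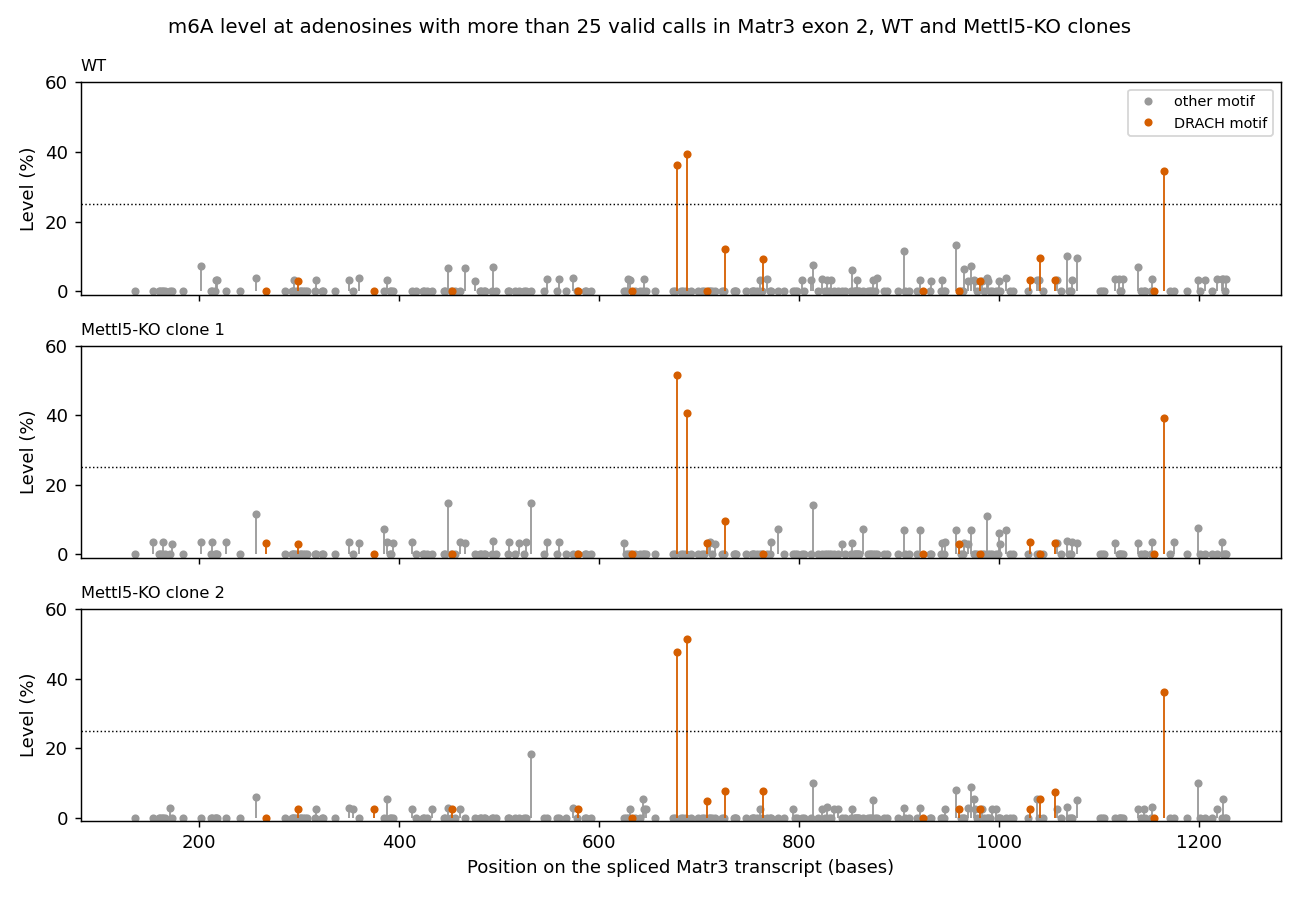
Methylation level in percent (y axis) at each adenosine of Matr3 exon 2 with more than 25 valid calls in the 3 libraries of the Mettl5 dataset, along the spliced transcript in bases (x axis), with DRACH positions in orange. The same 3 DRACH positions pass 25% in every library, from 34.5% to 51.6%.

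The other DRACH positions of Matr3 were low. Of 19 with more than 25 calls, the 16 that were no site were at most 12.1% in WT, at chr18:35572433, which read 9.68% in clone 1 and 7.69% in clone 2. A DRACH position 10 bases before the third site (chr18:35572862) had no m6A call in WT (29 calls), clone 1 (29) or clone 2 (40). Over the 19 the mean was 8.07% for WT, 8.47% for clone 1 and 9.75% for clone 2, beside 6.63%, 7.06% and 7.11% over all genes.

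Khsrp (ENSMUSG00000007670.10, chr17:57021051-57031522, minus strand) was covered only in its 3′ UTR, from 57021175 to 57021841, in the Mettl5 dataset. Its site has no DRACH motif and lies in the AU-rich stretch printed with the Sfpq windows. At this site (chr17:57021534) the level was 3.85% in WT (1 of 26 calls), 19.2% in clone 1 (5 of 26) and 28.1% in clone 2 (9 of 32). Both clones were above WT, by 15.4 and 24.3 percentage points, a description for the reason given for Sfpq. The exact binomial intervals were 0.0973 to 19.6% in WT and 13.7 to 46.7% in clone 2. They overlapped, which is no test of a difference. Failed calls were 29.7% of the calls in WT, 35.0% in clone 1 and 28.9% in clone 2, and their part in the level was not tested. The 7 DRACH positions of the Khsrp 3′ UTR with more than 25 calls were at most 4.88%. The covered stretch lies in the UTR of Khsrp-201, and no position upstream of 57021848, the start on the minus strand of the last exon of Khsrp-205, was covered.

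Nono (ENSMUSG00000031311.17, chrX:101429318-101448591, plus strand), the DBHS partner of SFPQ, was covered only in the last 3′ UTR stretch, from 101448096 to 101448581, and only in the METTL3 inhibition dataset. It had no site. Its 5 DRACH positions were at 0 in STM2457, and in DMSO 4 were at 0 and 1, at chrX:101448341, was at 3.12% of 32 calls. The highest of its 72 other positions was 10% in DMSO. With a median of 32 calls in DMSO and 29 in STM2457, a low level cannot be told from none. Nothing can be said of the rest of the Nono mRNA.

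The share of all valid calls that fell on these genes was measured as a description of their reads. In bulk samples, fewer cells that express a gene and less RNA per cell cannot be told apart. For Sfpq the log2 ratio of this share was 0.23 for STM2457 over DMSO, where the median of 2516 genes was 0.11, and for Nono it was 0.28. For clone 1 over WT it was 0.39 for Sfpq, 0.37 for Khsrp and 0.26 for Matr3, where the median of 966 genes was 0.13. For clone 2 over WT it was 0.25, 0.30 and 0.49, where the median was 0.16. None of these stood outside percentiles 58.2 to 79.5 of all genes.

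Of 16 related genes (other members of the DBHS, FET and KH-type families, Neat1 and paraspeckle proteins, and further nuclear RNA-binding proteins), 8 were covered in the METTL3 inhibition dataset and 6 of these held 26 sites. After STM2457, 21 of the 26 sites were lower and 0 higher by the same Fisher's exact test, where 91.5% and 0.323% of all sites were, and the median relative decrease was 79.6%. Tardbp, which encodes the RNA-binding protein TDP-43, had 8 sites, all lower, with a mean level of 60.6% in DMSO and 22.1% in STM2457. The gene of the paraspeckle protein RBM14 had 9 sites, 7 of them lower, with means of 49.9% and 16.2%. Ilf2, which encodes a nuclear RNA-binding factor, had 3 sites, all lower, with means of 58.5% and 10.4%. Pspc1, the third DBHS gene, Taf15 and Neat1 had no covered position. In the Mettl5 dataset 5 of the related genes held 18 sites, and 0 were lower and 0 higher in both clones, where 0.265% of all sites were called in either direction.

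Among the 185 genes with at least 3 sites in each dataset, those whose mean levels over the 5 libraries were nearest to the Sfpq means were Rac1, at a Euclidean distance of 9.71 percentage points, Fscn1 at 10.9 and Rnf187 at 12.2. Rac1, which encodes a small GTPase, read 45.7% in DMSO, 17.9% in STM2457, 32.5% in WT, 29.5% in clone 1 and 30.05% in clone 2.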

How the data were processed

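Direct RNA sequencing of 5 mESC libraries was used. The authors split the pooled reads by barcode (WarpDemuX), made base calls, m6A calls and mm10 alignments in dorado, and counted calls per position with modkit. The deposited counts are valid, m6A, canonical, other-modification, deleted, failed and other-base calls, not normalized. The deposited percent is m6A calls over valid calls. Failed calls are left out of it.

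Positions were placed on GENCODE M21 exons by strand. Sites needed more than 25 valid calls in every library of a dataset and a level of 25% or more in any 1 of them. A two-sided Fisher's exact test per site (scipy 1.17.1 in Python 3.11.15), adjusted by Benjamini-Hochberg across the dataset, was called at an adjusted p below 0.05, and intervals are exact binomial at 95%. The test was tested on simulated data. The genes, lists and tests were chosen with earlier results of these data known. Named items were the 5 genes, all their sites, 16 related genes and the 3 genes nearest to Sfpq, and some listed genes are not reported here. The alternatives were 50 calls, a level of 10%, failed calls in the denominator, DRACH motifs, all positions, leaving out a clone and, chosen after seeing the data, 25 or more calls and RefSeq-linked exons.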

Additional observations from a re-analysis of the deposited data

How the results depend on the processing

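Of 61 values recomputed under an alternative, 49 stayed close to the value reported, 12 moved and 0 reversed. The 49 include values with little or no room to change. No member position at exactly 25 calls had a level of 25% or more, so allowing 25 calls added no member site. RefSeq-linked exons, and all positions whether exonic or not, left the number of member sites as it was. After STM2457, 2 Sfpq sites were lower under each alternative that kept the 25% level, out of 3, or of 2 with 50 calls or DRACH motifs only. At a level of 10% or more 3 of 14 member sites were lower. The share over all sites at that level was not computed. With at least 50 calls, and with DRACH motifs only, the decrease of the Sfpq mean was 82.4%, the STM2457 mean 7.95% and the clone mean 40.0%, since only sites 1 and 2 are left. With a level of 10% or more, the median decrease was 60.3% over 12 sites, the decrease of the Sfpq mean 31.1%, and the mean levels 17.4% in DMSO, 13.8% in WT and 12.2% in the clones, since lower positions enter. With failed calls in the denominator the clone mean was 32.0% over 3 sites, where 6 Sfpq sites met the rule without them. Sfpq site 6 and the Khsrp site were among those that fell under 25% and were no longer sites. Leaving out each clone gave a clone mean of 25.6% to 28.9% and 0 of 3 Matr3 sites called. With at least 50 calls no Matr3 site was left, so the count of 0 called there counts as close without a test. No paired analysis was possible because each condition had 1 library and both clones shared 1 WT library. The member sites rested on 26 to 66 calls per library, which limits the precision of each level.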

Other observations

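The Sfpq sites 3, 4 and 5 share an adenosine followed by UG (TG in the sequences), a grouping chosen after the values were seen. In the METTL3 inhibition dataset 5 of the 71 such positions of Sfpq were at 10% or more in at least 1 library, or 7.04%. Of the 652 with neither this pattern nor a DRACH motif 4 were, or 0.613%. The mean level of the 71 was 2.29% in DMSO and 2.54% in STM2457, and that of the DRACH positions was 4.32% and 0.864%. The 71 include the sites that the grouping was drawn from. Among them is site 4, at 23.7% in DMSO and 41.9% in STM2457, which weighs on both means. Over all genes, 4.58% of the positions followed by UG and 1.26% of those with neither were at 10% or more. The positions followed by UG had means of 1.91% and 1.78% over all genes. In the Mettl5 dataset the mean over the 69 such positions of Sfpq read 3.64% for WT, 3.63% for clone 1 and 3.11% for clone 2.

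Some positions fell just under the 25% level. A CCATG in exon 3 of Sfpq (chr4:127023318) read 14.9% in DMSO and 20% in STM2457. A CCAGC in exon 1 (chr4:127021610) read 21.9% for WT, 5.88% for clone 1 and 7.89% for clone 2. A TCAAA in exon 4 (chr4:127023766) read 11.1%, 20% and 24.0%, and a GTATA of the Khsrp 3′ UTR (chr17:57021520) 22.2%, 12.1% and 0%, in the same order.

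Coverage beside introns differed with intron length over all genes, which is another measure than the depth steps of Sfpq. Both sides of the Sfpq introns of 2085 and 2308 bases were covered, and the cause of its steps was not tested. Where a covered position lay beside an intron, both sides were covered for 81.3% of introns under 500 bases, 26.9% of those of 500 to under 2000 bases and 4.80% of those of 2000 bases or more in the METTL3 inhibition dataset. In the Mettl5 dataset the shares were 81.8%, 32.3% and 5.29%.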
